A study of Rattus norvegicus with 4 samples.

Results

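The CC chemokine family was followed across 4 microarrays of vessels from male rats. Its 10 members here were Ccl2, Ccl3, Ccl4, Ccl5, Ccl6, Ccl7, Ccl11, Ccl19, Ccl20 and Ccl22, chosen by gene symbol among the 16574 genes named on the array. The groups were PKC beta deletion vessels with angiotensin II (KO Ang II), PKC beta deletion vessels without it (KO control), Wistar wild-type vessels with angiotensin II (WT Ang II) and Wistar wild-type vessels without it (WT control). Angiotensin II (Ang II) is a peptide hormone that constricts vessels, and acted for 24 h on vessels already taken out of the animal. The design names 4 male rats per genotype, but each group is 1 array, so no difference below carries a replicate check, and the sources used here do not give the age of the rats, the kind of vessel, how controls were kept, the method of deletion or any pooling of animals. In such tissue RNA, fewer cells of a type and less RNA per cell cannot be told apart. Of the 10 members, 9 were well above background on all 4 arrays, and Ccl11 on none.

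CC chemokines are small secreted proteins named for a pair of adjacent cysteines. They bind G-protein-coupled CC receptors on leukocytes and are held on the endothelial surface by glycosaminoglycans, so that blood cells can be arrested and drawn into the vessel wall. Endothelial cells, smooth muscle cells, fibroblasts and macrophages can all make them, and many of their genes are induced through NF-kB, AP-1 and interferon-activated factors. PKC beta is a kinase activated by calcium and diacylglycerol, which form when the Ang II type 1 receptor couples to phospholipase C.

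The values are processed signals of 1-colour (Cy3) arrays, given as multiples of the 75th percentile of the same array. That percentile was a processed signal of 52.1 in KO Ang II, 47.3 in KO control, 62.4 in WT Ang II and 58.7 in WT control, and 40.6% to 43.5% of probes were well above background. Differences are log2 ratios between arrays. The scanner software's own error of such a ratio was 0.20 to 0.25 for the 9 members, and 0.29 to 0.32 for a difference between 2 ratios. Spots of the same probe agreed more closely, with a median standard deviation of 0.06 to 0.07 (log2) on the 4 arrays, and both errors are technical only. Precision is limited by the number of arrays. Prkcb, the gene of the deleted kinase, is given here as processed signal, not as a multiple of the percentile. It had 1.88 in KO Ang II and 1.93 in KO control, neither well above background, against 17.8 in WT Ang II and 14.7 in WT control. Each of these signals lay below the 75th percentile of its array. A dimmer Prkcb probe was well above background on WT Ang II alone. All 5 smooth muscle markers and all 6 endothelial markers examined were well above background on all 4 arrays.

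The first question was how Ang II moved the family in each genotype. In KO vessels no member was 2-fold higher or lower with Ang II, and 8 of 9 lay below 0 with a median log2 ratio of -0.39. In WT vessels 4 of 9 members, Ccl4, Ccl5, Ccl7 and Ccl19, were at least 2-fold higher with Ang II, none was 2-fold lower, and the median was 0.69. Among all genes compared, 1.43% were at least 2-fold higher with Ang II in WT and 0.889% lower, with a median of 0.04 over 9789 genes. In KO these shares were 0.184% higher and 0.78% lower, with a median of -0.0046 (log2) over 9229 genes. By sign alone, 48.9% of genes lay above 0 in KO and 55.1% in WT. Over genes well above background on both arrays, as all 9 members were, 0.126% were higher and 0.483% lower in KO, and 1.14% were higher and 0.516% lower in WT.

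**Figure D1:**
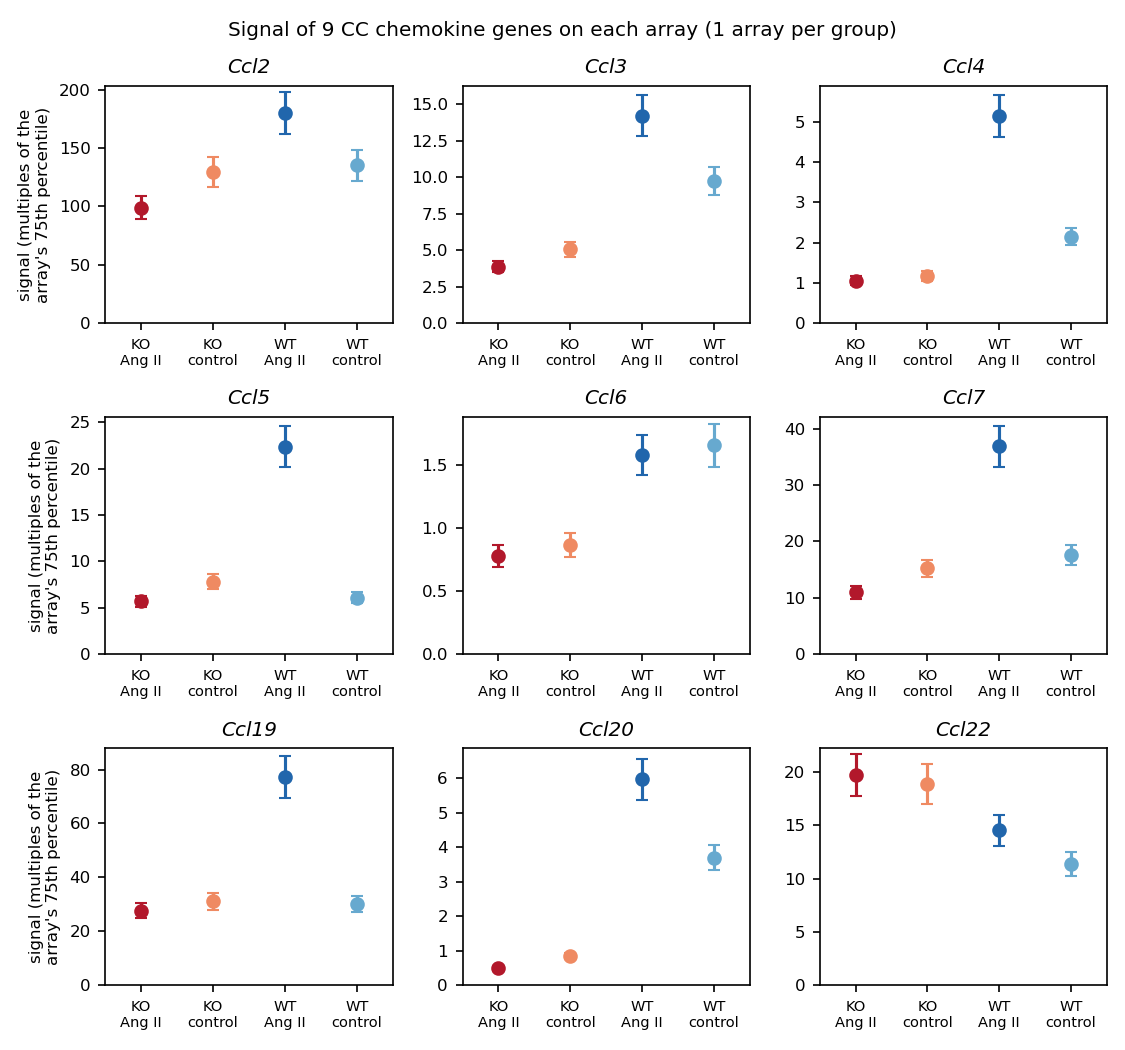
Signal of each of the 9 members above background on the 4 arrays, 1 panel per gene with its own axis from 0, in multiples of the array's 75th percentile. Each point is 1 array and bars are the scanner software's error. The WT Ang II point is the highest in 7 panels, and the KO Ang II point is the lowest in 8.

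The ligands that draw monocytes were Ccl2 and Ccl7, which share the receptor Ccr2. Ccl2 stood at 98.7 in KO Ang II, 129.8 in KO control, 179.8 in WT Ang II and 135 in WT control. Its log2 ratio for Ang II was -0.39 in KO and 0.41 in WT, so its arrays were separated by less than 2-fold in each genotype. The probe for Ccl2 was spotted 10 times, and its spots had a standard deviation of 0.03 to 0.06 (log2) on the 4 arrays. Ccl7 stood at 10.9 in KO Ang II, 15.2 in KO control, 36.9 in WT Ang II and 17.6 in WT control. It was 2.09-fold higher with Ang II in WT and had a log2 ratio of -0.48 in KO. For both genes the WT Ang II array was the highest and the KO Ang II array the lowest, while the control arrays of both genotypes lay close together.

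Ccl3, Ccl4 and Ccl5 attract T cells and macrophages, and Ccl3 and Ccl5 bind Ccr1. Ccl5 stood at 5.70 in KO Ang II, 7.83 in KO control, 22.4 in WT Ang II and 6.07 in WT control. It was 3.69-fold higher with Ang II in WT, the 9th highest ratio of 9789 genes, against a log2 ratio of -0.46 in KO. High Ccl5 was thus found on 1 array, WT Ang II, and the other 3 lay within a log2 range of 0.46. Ccl4 stood at 1.05 in KO Ang II, 1.16 in KO control, 5.15 in WT Ang II and 2.15 in WT control, and was 2.39-fold higher with Ang II in WT. Ccl3 stood at 3.86 in KO Ang II, 5.07 in KO control, 14.2 in WT Ang II and 9.73 in WT control. Its log2 ratio for Ang II was -0.39 in KO and 0.55 in WT. Ccl3 and Ccl4 differed from Ccl5 in that WT control also lay above both KO arrays.

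Ccl6, a chemokine known from rodents and described in the mouse as a Ccr1 ligand of macrophages, was the member with the smallest Ang II ratio in WT. It stood at 0.781 in KO Ang II, 0.863 in KO control, 1.58 in WT Ang II and 1.66 in WT control. The log2 ratios for Ang II were -0.14 in KO and -0.07 in WT, both inside the technical error. Its arrays separated by genotype and not by treatment, and its 10 spots had a standard deviation of 0.08 to 0.14 (log2) on the 4 arrays.

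Ccl19, Ccl20 and Ccl22 guide dendritic cells and lymphocytes. Ccl19, a ligand of the lymph node homing receptor Ccr7, stood at 27.6 in KO Ang II, 31.1 in KO control, 77.3 in WT Ang II and 30.0 in WT control, and was 2.58-fold higher with Ang II in WT, against a log2 ratio of -0.17 in KO. As for Ccl5, a single array was high. Ccl20, the ligand of Ccr6, stood at 0.481 in KO Ang II, 0.844 in KO control, 5.98 in WT Ang II and 3.70 in WT control. Its log2 ratio for Ang II was -0.81 in KO, the lowest of the 9 members there, and 0.69 in WT. Ccl22, a ligand of the T cell receptor Ccr4 made by dendritic cells and macrophages, stood at 19.7 in KO Ang II, 18.9 in KO control, 14.5 in WT Ang II and 11.3 in WT control. It was the only member of the 9 whose KO arrays were both above its WT arrays, with log2 ratios for Ang II of 0.07 in KO and 0.36 in WT.

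Ccl11, the eosinophil chemokine eotaxin that binds Ccr3, was read by 1 probe. It stood at 0.077 in KO Ang II, 0.036 in KO control, 0.026 in WT Ang II and 0.029 in WT control. None was well above background, so no ratio was taken.

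**Figure D2:**
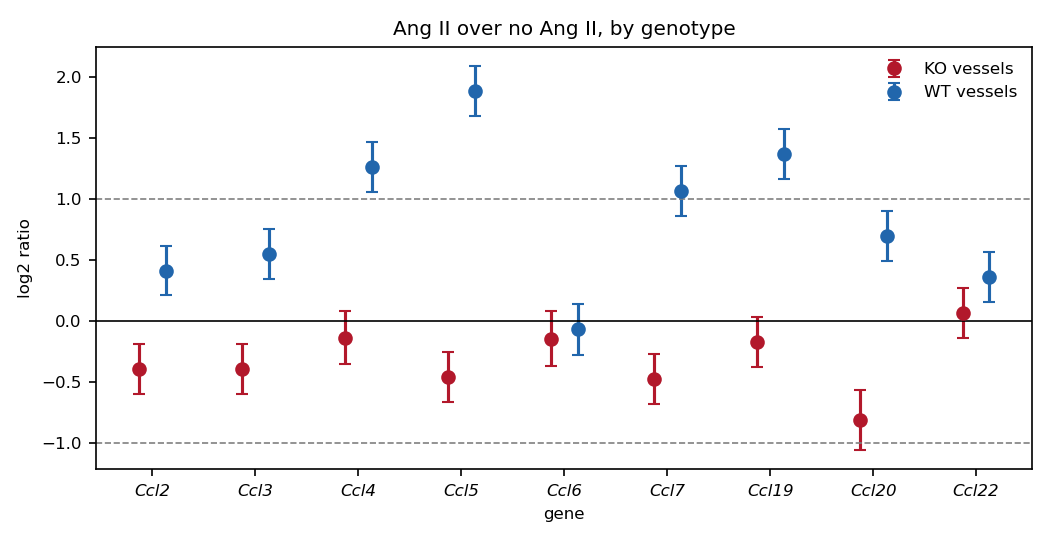
Log2 ratio of Ang II over no Ang II for the 9 members, in KO vessels (left point of each pair) and WT vessels (right point), with the scanner software's error as bars and 2-fold marked by dashed lines. WT ratios of Ccl4, Ccl5, Ccl7 and Ccl19 lie above the upper line, and no KO ratio reaches either line.

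Set against the technical error alone, the 95% interval of the Ang II ratio excluded 0 for 3 of 9 members in KO (Ccl5, Ccl7 and Ccl20, all lower) and for 7 of 9 in WT (all but Ccl6 and Ccl22, all higher). These intervals hold no spread between animals, and the share of all genes whose interval excluded 0 was not counted. The middle 95% of all genes compared ran from -0.66 to 0.55 (log2) in KO and from -0.73 to 0.86 in WT. The WT ratio of Ccl4 was 0.84 with normexp background correction, and that of Ccl7 was 0.9986 with quantile normalization, each short of 2-fold. The normexp correction used here adds 50 to each signal, which shrinks the ratios of dim genes.

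The promoters of members whose top value lay on WT Ang II (Ccl20, Ccl7 and Ccl19) are shown beside that of Ccl6, whose top value did not, to set their sequences against these patterns. Each window runs from 250 bases before the annotated gene start to 50 after it, 5′ to 3′ on the gene's strand, from RefSeq on GRCr8. Windows were matched for 5 of the 10 members, Ccl6, Ccl7, Ccl19, Ccl20 and Ccl22. Capitals mark matches on either strand to the NF-kB consensus, the AP-1 motif TGANTCA, the core of the interferon-stimulated response element GAAANNGA, or TATAAA.
Ccl20, chr9:91836909-91837208, plus strand: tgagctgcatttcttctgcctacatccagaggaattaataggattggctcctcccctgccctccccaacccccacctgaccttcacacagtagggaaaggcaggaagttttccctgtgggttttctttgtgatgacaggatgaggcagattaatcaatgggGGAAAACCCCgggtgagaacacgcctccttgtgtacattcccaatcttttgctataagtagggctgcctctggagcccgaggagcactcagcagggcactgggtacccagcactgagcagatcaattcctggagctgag
Ccl7, chr10:67513845-67514144, plus strand: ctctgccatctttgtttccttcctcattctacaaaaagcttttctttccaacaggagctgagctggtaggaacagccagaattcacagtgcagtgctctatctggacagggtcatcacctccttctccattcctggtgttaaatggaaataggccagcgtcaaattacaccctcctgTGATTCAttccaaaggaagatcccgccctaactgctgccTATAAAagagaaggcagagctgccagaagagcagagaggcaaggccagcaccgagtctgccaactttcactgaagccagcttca
Ccl19, chr5:61761115-61761414, minus strand: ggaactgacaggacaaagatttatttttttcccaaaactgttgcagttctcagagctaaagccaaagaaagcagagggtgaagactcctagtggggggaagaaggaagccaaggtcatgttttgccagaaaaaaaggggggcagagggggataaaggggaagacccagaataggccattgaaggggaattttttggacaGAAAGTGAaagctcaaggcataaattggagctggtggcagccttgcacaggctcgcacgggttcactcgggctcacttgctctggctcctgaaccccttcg
Ccl6, chr10:68883317-68883616, minus strand: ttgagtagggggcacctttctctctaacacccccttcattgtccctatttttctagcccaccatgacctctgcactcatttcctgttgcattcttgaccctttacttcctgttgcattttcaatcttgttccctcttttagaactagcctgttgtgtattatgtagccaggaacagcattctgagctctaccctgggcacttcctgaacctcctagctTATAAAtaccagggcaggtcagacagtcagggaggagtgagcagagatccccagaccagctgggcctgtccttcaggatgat

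In the Ccl20 window the NF-kB consensus matched at 89 bases before the gene start, and 4.16% of 27457 rat promoter windows of this length held such a match. The Ccl7 window held the AP-1 motif at 73 bases before the start (7.33% of all windows) and TATAAA at 34 bases before it (14.3%). In the Ccl19 window the interferon element core matched at 51 bases before the start (21.8%). The Ccl6 window held only TATAAA, at 32 bases before the start, and Ccl22 none of the 4 motifs. These matches describe letters in a short window, and binding was not measured. No motif overlapped another in the windows shown.

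The second question was whether the Ang II responses of the genotypes differed. All 9 members had a lower log2 ratio for Ang II in KO than in WT, and 5 of them, Ccl4, Ccl5, Ccl7, Ccl19 and Ccl20, by at least 2-fold. The median difference, KO response minus WT response, was -1.40, against -0.05 over all 8585 genes well above background on 4 arrays, of which 2.85% were at least 2-fold lower and 1.27% higher. Of these 8585 genes, 44.0% lay above 0. Ccl5 had a difference of -2.34, the 2nd lowest of the 8585 genes. Ccl7 and Ccl19 each stood at -1.54, Ccl20 at -1.504 and Ccl4 at -1.40. Below the size rule were Ccl3 at -0.94, Ccl2 at -0.81, Ccl22 at -0.29 and Ccl6 at -0.07, the last 2 with 95% intervals of the technical error that held 0. With 1 array per group the difference of responses had no test. With normexp background correction in place of the software's own, Ccl4 (-0.83) and Ccl20 (-0.71) no longer reached 2-fold.

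**Figure D3:**
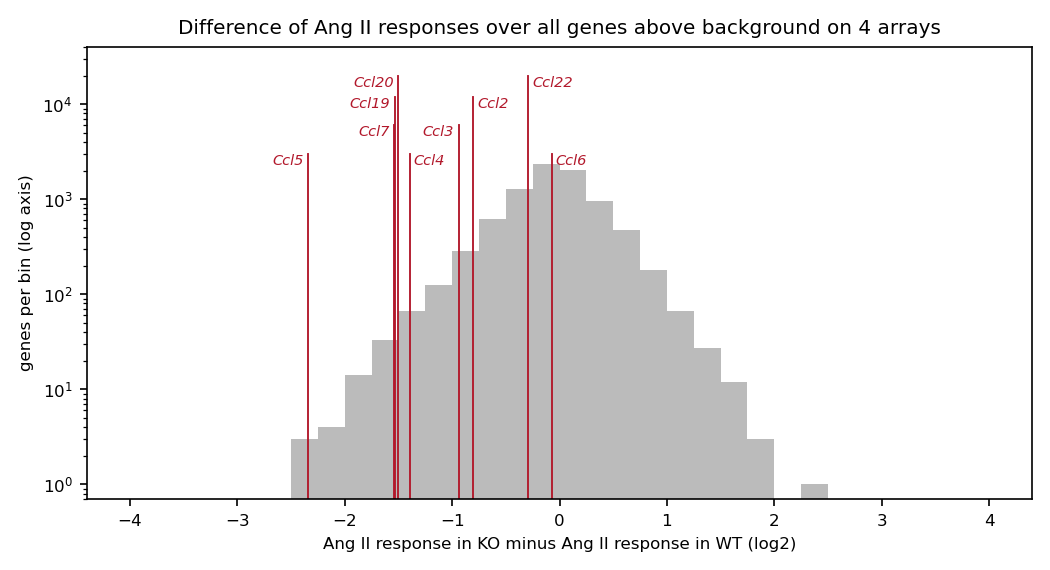
Histogram of the Ang II response in KO minus that in WT (log2) over the 8585 genes above background on 4 arrays, with the number of genes per bin on a log axis. Red lines mark the 9 members, all left of 0, from Ccl5 at -2.34 to Ccl6 at -0.07.

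The third question was how KO vessels differed from WT vessels at a given treatment. With Ang II, 7 of 9 members were at least 2-fold lower in KO, all but Ccl2 and Ccl22, and none was 2-fold higher. The share of all 9566 genes compared that was at least 2-fold lower was 4.41%, and 1.84% were higher, with a median of -0.04 against -1.75 for the members. Without Ang II, 1 of 9 members, Ccl20, was at least 2-fold lower in KO and none higher, where 3.33% of 9443 genes were lower and 2.4% higher, and the median of the members was -0.21 against 0.01 over all genes. Over genes well above background on both arrays, 4% were lower and 1.58% higher with Ang II, and 2.74% were lower and 1.9% higher without it. Both treatments' comparisons share arrays with those of Ang II, so their values are not independent of the ones above.

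Ccl20 had the lowest ratio of all 9566 genes with Ang II, 12.4-fold lower in KO, and was 4.38-fold lower without it. With normexp background correction the log2 ratio of Ccl20 with Ang II was -2.27 (-3.64 otherwise) and that of Ccl4 -1.49 (-2.29 otherwise). With Ang II, Ccl4 was 4.89-fold lower in KO, Ccl5 3.93-fold, Ccl3 3.69-fold, Ccl7 3.37-fold, Ccl19 2.80-fold and Ccl6 2.02-fold (log2 -0.52 with normexp), while Ccl2 had a log2 ratio of -0.87 and Ccl22 one of 0.44. The members were of 3 kinds by their values without Ang II. Ccl3 (-0.94), Ccl4 (-0.89), Ccl6 (-0.94) and Ccl20 (-2.13) were already lower in KO control than in WT control. Ccl2 (-0.06), Ccl7 (-0.21) and Ccl19 (0.05) differed there by about the technical error or less, although Ccl19 stood at -0.43 with normexp. Ccl5 (0.37) and Ccl22 (0.73) lay above 0, with Ccl5 inside the 95% interval of the technical error.

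**Figure D4:**
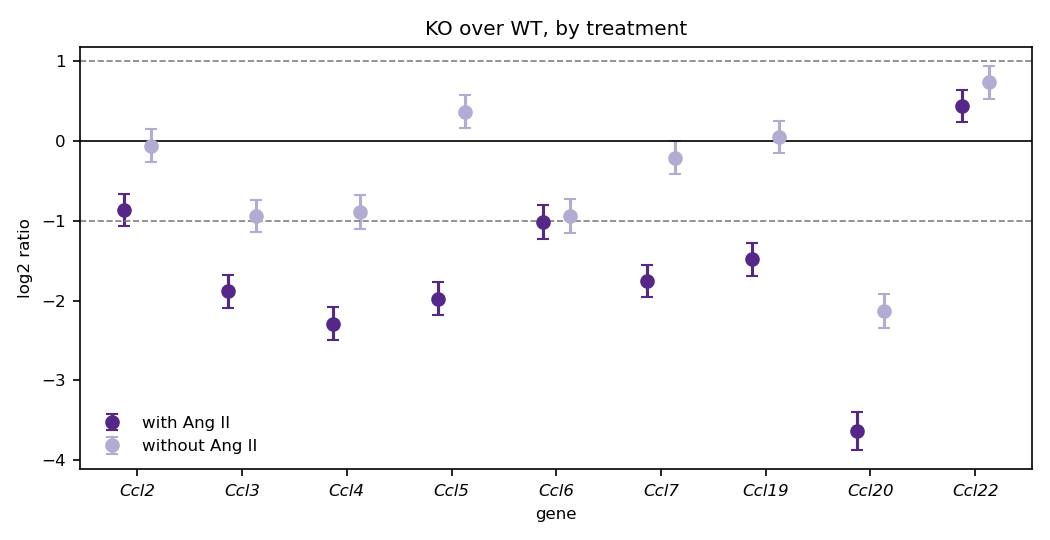
Log2 ratio of KO over WT for the 9 members, with Ang II (left point of each pair) and without it (right point), with the scanner software's error as bars and 2-fold marked by dashed lines. With Ang II 7 members lie below the lower line, and without it only Ccl20 does.

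An additive fit of genotype and Ang II over all 4 arrays by limma left 1 residual degree of freedom, with the difference of responses as its residual. Its standard errors and p therefore hold no spread between animals of the same group. After Benjamini-Hochberg adjustment it called 0 of 9375 genes for either effect (0% higher and 0% lower), and so 0 of 9 members. For the KO effect, 2462 genes (26.3%) and 5 members had an unadjusted p under 0.05, and for the Ang II effect 361 genes (3.85%) and 0 members. The members with the smallest adjusted p for KO against WT by limma were Ccl20 at -2.88 ± 0.40 (log2, standard error, adjusted p = 0.0932), Ccl6 at -0.98 ± 0.15 (adjusted p = 0.1004) and Ccl3 at -1.41 ± 0.28 (adjusted p = 0.106). For Ccl5, whose responses differed most between the genotypes among the members, the KO effect was -0.80 ± 0.59 (adjusted p = 0.434). All adjusted p for the Ang II effect of the 9 members were 0.99984.

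Probes could be set against each other for Ccl20 and Ccl22. The dimmer Ccl20 probe stood at 0.196 in KO Ang II, 0.472 in KO control, 3.47 in WT Ang II and 1.83 in WT control, the same order of arrays as the brighter one. Its log2 ratios for Ang II were -1.26 in KO and 0.92 in WT, and those for KO against WT were -4.14 with Ang II and -1.95 without it. Ccl22 had 2 dimmer probes, both with higher values in KO control than in WT control (log2 0.89 and 0.90, against 0.73 for the brightest probe). With Ang II in KO they disagreed, at -0.73 and -0.0028 (log2), where the brightest probe gave 0.07.

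**Figure D5:**
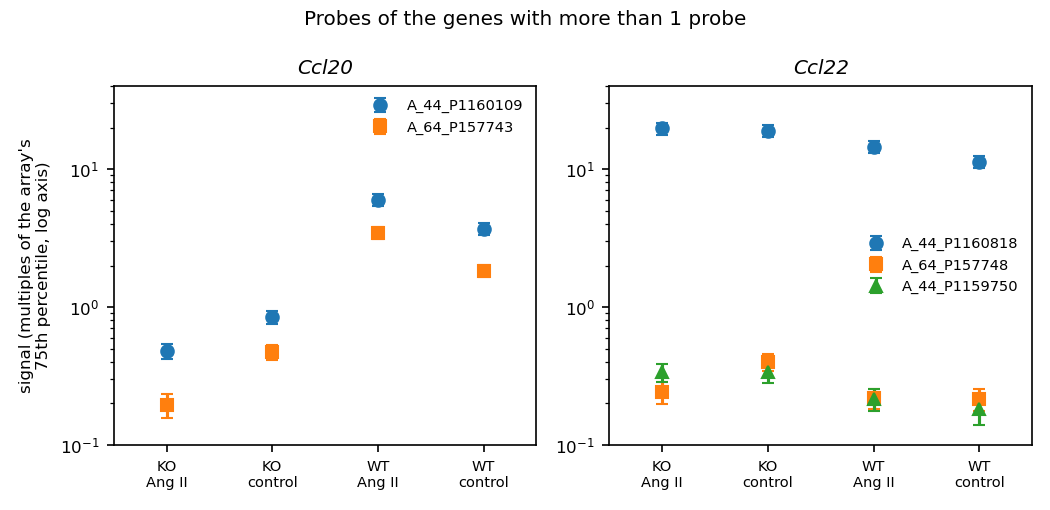
Signal of each probe of Ccl20 (left) and Ccl22 (right) on the 4 arrays, in multiples of the array's 75th percentile on a log axis, with the scanner software's error as bars; circles are the brightest probe, whose values are used elsewhere. Both Ccl20 probes are lowest in KO Ang II and highest in WT Ang II, and the Ccl22 probes differ in their order.

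Across the 4 arrays, 7 of 9 members were highest on WT Ang II, as were 32.2% of the 8585 genes, and 8 of 9 were lowest on KO Ang II, as were 20.5% of genes. The members' log2 range over the arrays had a median of 1.75, against 0.50 for all these genes, and 5 of 9 lay above the 97.5th percentile of 1.51. Ccl20 had the largest range of the 9 (3.64) and Ccl22 the smallest (0.80). Distance between profiles was taken as the Euclidean distance of log2 values centred on each gene's mean over the arrays. The closest of the 36 pairs were Ccl7 and Ccl19 (0.40), Ccl5 and Ccl19 (0.43) and Ccl3 and Ccl4 (0.56), and the farthest were Ccl20 and Ccl22 (3.53).

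In the GRCr8 gene order, 7 of the 10 members lie on chromosome 10 in 2 runs. Ccl2, Ccl7 and Ccl11 are next to each other, followed by Ccl12, and Ccl5 is separated by Ccl9 from Ccl6, Ccl3 and Ccl4. Of the 36 pairs, the adjacent genes Ccl3 and Ccl4 had the 3rd smallest profile distance (0.56), Ccl3 and Ccl6 the 6th (0.64) and Ccl2 and Ccl7 the 9th (0.70), while Ccl5 and Ccl6, with Ccl9 between them, stood at 1.41. The closest pair, Ccl7 and Ccl19, lies on different chromosomes.

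The 3 genes closest to Ccl20 among 8520 searched were Orm1, an acute phase protein (0.57), Ubd, the ubiquitin-like protein FAT10 (0.90), and Slpi, a secreted protease inhibitor (0.99). Those closest to Ccl4, the member with the next largest range, were the chitinase-like protein gene Chi3l1 (0.03), the guanylate-binding protein gene Gbp5 (0.24) and Bmp5 (0.34). With 4 arrays such closeness is a description of these profiles only.

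Other CC ligands were examined from a list of 12 genes, 11 of them on the array and 5 above background on at least 1 array. Ccl12, known from rodents as a further monocyte chemokine, stood at 5.13 in KO Ang II, 5.82 in KO control, 23.6 in WT Ang II and 14.0 in WT control, and was 4.60-fold lower in KO with Ang II and 2.41-fold lower without it. Ccl9 stood at 4.17 in KO Ang II, 5.43 in KO control, 4.46 in WT Ang II and 2.59 in WT control, and had a log2 ratio for KO against WT of -0.10 with Ang II and 1.07 without it. Thus 2 rodent chemokines outside the members went opposite ways between KO control and WT control. Ccl21, a Ccr7 ligand of lymphatic vessels, was above background in WT control only and was there at least 5.60-fold higher than in WT Ang II. Ccl24 was also above background in WT control only, and Ccl27 had log2 ratios of 0.29 or less in either direction. In this list 0 of 3 genes were 2-fold higher or lower with Ang II in KO, and in WT 0 of 5 were higher and 2 lower.

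Among the receptors, Ccr9, found on intestinal lymphocytes, stood at 1.16 in KO Ang II, 1.44 in KO control, 0.613 in WT Ang II and 0.747 in WT control. Its log2 ratios for KO against WT were 0.92 with Ang II and 0.95 without it, each short of 2-fold, and both KO arrays lay above both WT arrays. Ccr6, the receptor of Ccl20, was above background on WT Ang II alone. Ccr1, Ccr1l1, Ccr2, Ccr3, Ccr4, Ccr7 and Ccr10 were not well above background on any array, so no ratio was taken for them. Ccrl2, an atypical receptor that presents chemoattractants, stood at 1.61 in KO Ang II, 1.39 in KO control, 4.24 in WT Ang II and 1.74 in WT control, with the highest value on the same array as 7 of the members. Ackr3, a scavenger receptor of Cxcl12, had log2 ratios for KO against WT of -1.22 with Ang II and -1.25 without it.

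Inducers of chemokine genes were followed in a list of 23 cytokines, pattern receptors and transcription factors, of which 18 were above background on at least 1 array. With Ang II, 12 of 17 lay above 0 in KO (48.9% of all genes), with a median log2 ratio of 0.08 and none at 2-fold. In WT 16 of 18 lay above 0 (55.1% of all genes), with a median of 0.53 and 1 at least 2-fold higher. That gene was Tnf, which stood at 0.859 in KO Ang II, 0.571 in KO control, 3.96 in WT Ang II and 1.96 in WT control. Il1a had a log2 ratio for KO against WT of -1.53 with Ang II and -0.86 without it. Jun, a subunit of AP-1, went the other way, with 1.64 with Ang II and 0.55 without it, while Nfkb1, Fos and Irf7 differed by -0.39, 0.09 and -0.05 with Ang II. The Ang II response in KO minus that in WT was -0.95 for Nfkb1, -0.35 for Fos, -0.87 for Irf7 and 1.08 for Jun. In this list 14 of 17 genes had such a difference below 0 and 3 above (median -0.44), where 44.0% of all genes lay above 0. In the list for signalling from PKC to NF-kB, 6 of 8 genes on the array were above background, and Bcl10 alone was past 2-fold, at -1.27 for KO against WT with Ang II. Among proteins that act on chemokines or their RNA, 10 of 11 on the array were above background. Tnfaip6, whose product binds chemokines and hyaluronan, was above background on the WT arrays only and was at least 3.17-fold lower in KO with Ang II. The protease gene Mmp12 was the 1 gene of this list that was 2-fold higher with Ang II in KO (2.14-fold).

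Markers of the cells that could make or answer chemokines were read on the same arrays. General leukocyte markers were above background for 4 of 4, and their summed signal was 7.39 in KO Ang II, 7.06 in KO control, 9.86 in WT Ang II and 11.1 in WT control. All 4 were lower in KO with Ang II (median -0.60) and without it (median -0.80). Macrophage markers were above background for 6 of 7, all but Mrc1, with sums of 17.2 in KO Ang II, 15.0 in KO control, 30.9 in WT Ang II and 25.6 in WT control, medians for KO against WT of -0.25 with Ang II and -0.91 without it, and medians for Ang II of 0.15 in KO and 0.02 in WT. Named after their values were seen, Adgre1 (-2.04) and Cd14 (-1.49) were at least 2-fold lower in KO with Ang II, while Cd68 stood at -0.19, C1qa at -0.21 and Cd163 at -0.30 (a bound), and Csf1r, above background in KO Ang II but not in WT Ang II, had a bound of 0.58 (log2). Cd163 was 3.15-fold lower with Ang II in WT. Cd14 made the largest part of the macrophage sum on both WT arrays, at 16.8 in WT Ang II and 11.3 in WT control. It stood at 6.01 in KO Ang II and 5.99 in KO control. T cell and NK cell markers were above background for 2 of 8, Cd3d and Cd4, with sums of 2.49 in KO Ang II, 2.44 in KO control, 2.39 in WT Ang II and 2.44 in WT control. Of markers on the array, 0 of 4 for neutrophils, 0 of 4 for monocytes or dendritic cells and 0 of 2 for B cells were above background on any array. Smooth muscle markers summed to 186 in KO Ang II, 167 in KO control, 119 in WT Ang II and 126 in WT control. Fibroblast markers summed to 267 in KO Ang II, 298 in KO control, 404 in WT Ang II and 376 in WT control. Endothelial markers summed to 19.9 in KO Ang II, 18.3 in KO control, 21.5 in WT Ang II and 24.2 in WT control. The sums over macrophage, leukocyte, fibroblast and endothelial markers were lower on both KO arrays than on both WT arrays, and that of smooth muscle higher, but single markers differed. Of the fibroblast markers, 5 of 5 were below 0 for KO against WT with Ang II (median -0.75) and 3 of 5 without it (median -0.39), with Col1a1 at -1.78 and -1.52 and Dcn at -0.14 and 0.14. Of the endothelial markers, 4 of 6 were below 0 with Ang II (median -0.12) and 5 of 6 without it (median -0.58). Of the smooth muscle markers, 5 of 5 were above 0 with Ang II (median 0.58) and 5 of 5 without it (median 0.55). Among all genes compared for KO against WT, 46.6% lay above 0 with Ang II and 51.2% without it. Lymphatic endothelial markers (4 of 4 above background on at least 1 array) summed to 144 in KO Ang II, 159.6 in KO control, 267 in WT Ang II and 201 in WT control. Mast cell markers (2 of 4) summed to 1.78 in KO Ang II, 1.22 in KO control, 2.32 in WT Ang II and 3.97 in WT control. White adipocyte markers (2 of 3 on the array) summed to 0.287 in KO Ang II, 0.211 in KO control, 0.829 in WT Ang II and 1.20 in WT control. Neither adipocyte marker was well above background in KO control, nor was Fabp4 in KO Ang II. These 3 sums were also lower on both KO arrays, but the lymphatic sum was mostly Prox1 (120.6 in KO Ang II, 126 in KO control, 238 in WT Ang II and 176 in WT control) and the mast cell sum mostly Kit. Of the lymphatic markers, 4 of 4 were below 0 for KO against WT with Ang II (median -0.64) and 2 of 4 without it (median -0.02), where Flt4 (1.09, a bound) and Pdpn (0.43) were higher in KO. Red cell markers (3 of 4) summed to 25.1 in KO Ang II, 17.8 in KO control, 29.3 in WT Ang II and 16.3 in WT control, higher with Ang II in both genotypes. Both KO arrays also lay below both WT arrays for Ccl2, Ccl3, Ccl4, Ccl6, Ccl7 and Ccl20. For Ccl2 (-0.06) and Ccl7 (-0.21) the controls differed by about the technical error or less (log2, KO against WT). The share of all genes with this order of arrays was not counted, and the part of cell content in the chemokine values was not tested. For Ang II in WT the leukocyte markers had a median of -0.15, with 4 of 4 below 0. The macrophage markers were split there, with Adgre1 (0.73), Cd14 (0.58) and Cd68 (0.18) above 0 and the other 3 below 0.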

How the data were processed

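RNA of 4 vessel samples, 1 array per group, was labelled with Cy3 from 100 ng, per the labels' protocols. Intensity, as deposited, is 1 scanner reading per spot. Background was already subtracted from the processed signal, per the file headers, with no scaling between arrays. Pixel medians, the software's error and the flags, other values of 0 or 1, are per the file headers too. The headers give Feature Extraction 10.7.1.1 and the submitters' processing notes 12.1.1.1, which disagree. One slide and 1 scan time held the 4 arrays, so array position and group cannot be told apart. A second table, deposited by the authors, is on a log2 scale: within each array 98.0% to 98.1% of its probes differed from the log2 processed signal by the same amount to within 0.01. How it was centred is unknown, and its column medians were 2.11, 2.27, 2.22 and 2.295 for KO Ang II, KO control, WT Ang II and WT control.

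Outlier spots (301 to 372 per array) were left out, spots of a probe averaged as log2, and each array's 75th percentile subtracted. A probe counted as well above background where over 50% of its spots were flagged so. Accessions were matched to RefSeq names of GRCr8, naming 21100 of 45594 probes. The array design's build is rn4, so no gene coordinates are given beside array values. A gene took its brightest probe by mean, and a gene above background on 1 side only gave a bound against the higher of that array's lowest signal above background and the dim probe's own signal. The size rule was 2-fold, with no test. limma 3.58.1 in R 4.3.3 fitted genotype and Ang II additively over the 9375 genes above background on 2 or more arrays (3.17 prior degrees of freedom), and p was adjusted by Benjamini-Hochberg over them, with 0.05 as threshold. Python 3.11.15 with numpy 2.4.6, pandas 2.3.3 and matplotlib 3.10.9 did the rest. The steps were tested on simulated data. The 10 members, 6 gene lists and 13 marker lists were chosen with earlier results of these data known. Named genes were all members, Prkcb, the 3 nearest profiles of the 2 members with the largest range, and at most 6 genes per list, those with the largest ratios. The 8 alternatives covered background correction, normalization, the percentile, probe choice, dim genes, the deposited table, outlier spots and the size rule. One gene of the lists is not reported here. The files hold no mean signal, so normexp (offset 50) used the median signal.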

Additional observations from a re-analysis of the deposited data

Results flagged for a closer look

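For 7 of 9 members the single KO array with Ang II lay below its control and the single WT array with Ang II lay above its control, which is a difference between the genotypes in the direction of the response. The share of all genes with such opposite directions was not counted. Among all genes compared, 48.9% lay above 0 with Ang II in KO and 55.1% in WT. The KO response minus the WT response (log2) was -0.81 for Ccl2, -0.94 for Ccl3, -1.40 for Ccl4, -2.34 for Ccl5, -1.54 for Ccl7, -1.54 for Ccl19 and -1.504 for Ccl20. The difference was not tested, since each group has 1 array, and the KO ratios of Ccl2, Ccl3, Ccl4 and Ccl19 had 95% intervals of the technical error that held 0. With normexp background correction the KO ratio of Ccl4 was 0.01 (otherwise -0.14), so that Ccl4 no longer had opposite directions. With the probes of a gene averaged, Ccl22 stood at -0.22 in KO (otherwise 0.07) and 0.21 in WT, so that it did have opposite directions.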

How the results depend on the processing

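No paired analysis was possible because each group holds 1 array, and for the same reason no replicate could be left out. Over 315 values of single members under 7 alternatives, 310 kept their sign and 7 crossed the 2-fold line. None of the 17 differences of at least 2-fold changed sign in these alternatives. Many of the 315 values could hardly change, so the count of kept signs is a weak check. Leaving out dim genes repeated the main values, as every member compared was well above background on each array. The deposited table held nearly the same signals, and averaging probes could change only Ccl20 and Ccl22. With normexp background correction the members' median was -0.43 for KO against WT without Ang II (main -0.21) and -0.83 for the difference of responses (main -1.40), where 3 members were at least 2-fold lower (main 5). Ccl4 stood at 0.84 there for Ang II in WT (main 1.26) and Ccl6 at -0.52 for KO against WT with Ang II (main -1.02), and in the difference Ccl20 at -0.71 (main -1.504). Averaging all probes of a gene, 1 member, Ccl20 at -1.04, was at least 2-fold lower with Ang II in KO (main 0). A size rule of 1.5-fold gave 1 member lower with Ang II in KO, and 1 higher and 4 lower in KO without Ang II (main 0, 0 and 1). Over all genes normexp gave for Ang II in WT 29 genes higher and 8 lower (main 140 and 87) and 18 higher and 137 lower for KO against WT with Ang II (main 176 and 422). Normexp here added an offset of 50 to each signal, where the 75th percentiles of the processed signal were 47.3 to 62.4. Such an offset shrinks the ratios of dim genes, and its part in these counts was not tested. The additive fit called 0 genes for either effect in each of its 4 alternatives. Dim members, Ccl6 and Ccl20 in KO, are limited by signal over background.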
